A study of Rattus norvegicus with 9 samples.

Results

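The genes described here encode the carriers that move bile acids, organic anions and drugs into and out of the hepatocyte. They were chosen by name: Slc10a1, Slco1a1, Slco1a4, Slco1b2, Slc22a7, Slc22a8, Abcb11, Abcb4 and Abcc2. Of these 9 genes, 8 were matched by symbol among the 32883 genes of the deposited table, and the level of Abcb4 was not analysed here. All 8 passed the filter on low counts in every comparison. Liver RNA was sequenced from 9 male Sprague-Dawley rats, 3 in each of 3 groups. The normal control rats (N1, N3 and N12) had a normal diet, while the DEN model rats (M13, M17 and M24) received weekly intraperitoneal injections of 0.01% diethylnitrosamine (DEN), a liver carcinogen, over 16 weeks. The rats of the PZH administration group (G27, G28 and G42) received the same DEN course together with Pien-Tze-Huang (PZH), a Chinese patent medicine. The treatment tag of the M rats also reads PZH, and they were taken as the DEN model by their title letter and the methods of the study, while the age, PZH dose and collection week per rat are not given in the sources used here.

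A hepatocyte takes bile acids and organic anions from sinusoidal blood through carriers of its basolateral membrane and secretes them into the bile canaliculus through ATP-driven pumps. Slc10a1 (Ntcp) couples bile acid uptake to sodium, and Slco1a1, Slco1a4 and Slco1b2 (the Oatp family) take up bile acids, bilirubin, hormones and drugs without sodium. Slc22a7 (Oat2) and Slc22a8 (Oat3) carry smaller organic anions. At the canalicular membrane, Abcb11 (Bsep) exports bile salts and Abcc2 (Mrp2) exports conjugated organic anions such as bilirubin glucuronides. In cholestasis, loss of uptake carriers together with a gain of pumps on the blood side is well known.

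In the coordinates of the authors' file, whose genome build is not given in the sources used here, all 8 are protein-coding genes. The 3 Oatp genes are neighbours on chromosome 4, Slco1b2 at chr4:175814118-175881768, Slco1a4 at chr4:175969549-176026163 and Slco1a1 at chr4:176158640-176231344. They are related copies, so their counts are uncertain where reads could match more than one of them. Slc10a1 lies at chr6:104617730-104631355, Slc22a7 at chr9:16924520-16931766, Slc22a8 at chr1:224800252-224818482, Abcb11 at chr3:55480024-55587946 and Abcc2 at chr1:263554453-263613252.

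Upstream sequences are shown for Slc10a1, Slco1b2 and Abcc2, whose windows held a match to AGGTCA. Of these, Slc10a1 and Slco1b2 differed between the groups while Abcc2 did not under the scaling used. Slc22a7 and Slc22a8 also differed, but their windows held no match and are not printed. The sequences of Slco1a1 and Slco1a4 are shown because these genes are close copies whose counts did not move equally. Each sequence is the 250 bases before the RefSeq start (GRCr8), 5′ to 3′ on the strand of the gene. Capitals mark matches on either strand to AGGTCA (a core of nuclear receptor sites) or TATAAA (the TATA box). In the order printed, the windows are chr6:106357945-106358194 (minus strand), chr4:176282334-176282583 (plus strand), chr1:252613625-252613874 (plus strand), chr4:176681993-176682242 (minus strand) and chr4:176495847-176496096 (minus strand).
Slc10a1: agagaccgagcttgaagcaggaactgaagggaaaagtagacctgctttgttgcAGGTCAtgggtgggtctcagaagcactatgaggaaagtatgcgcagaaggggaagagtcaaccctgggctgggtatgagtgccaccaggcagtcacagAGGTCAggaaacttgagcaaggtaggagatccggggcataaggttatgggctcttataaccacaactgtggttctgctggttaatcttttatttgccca
Slco1b2: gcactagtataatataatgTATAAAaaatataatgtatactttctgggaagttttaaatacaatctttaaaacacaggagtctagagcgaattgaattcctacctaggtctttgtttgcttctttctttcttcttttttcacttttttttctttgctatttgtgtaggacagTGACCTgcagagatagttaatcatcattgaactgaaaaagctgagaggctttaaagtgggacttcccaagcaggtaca
Abcc2: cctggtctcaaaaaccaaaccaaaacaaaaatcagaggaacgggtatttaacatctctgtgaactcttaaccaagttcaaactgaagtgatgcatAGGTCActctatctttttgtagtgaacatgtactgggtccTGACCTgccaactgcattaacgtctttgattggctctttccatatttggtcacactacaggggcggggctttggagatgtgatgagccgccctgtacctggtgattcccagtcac
Slco1a1: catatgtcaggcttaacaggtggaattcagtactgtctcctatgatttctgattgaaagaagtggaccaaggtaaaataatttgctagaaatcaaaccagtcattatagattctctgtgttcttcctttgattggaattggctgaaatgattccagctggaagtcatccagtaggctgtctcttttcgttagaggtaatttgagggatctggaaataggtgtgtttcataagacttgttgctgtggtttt
Slco1a4: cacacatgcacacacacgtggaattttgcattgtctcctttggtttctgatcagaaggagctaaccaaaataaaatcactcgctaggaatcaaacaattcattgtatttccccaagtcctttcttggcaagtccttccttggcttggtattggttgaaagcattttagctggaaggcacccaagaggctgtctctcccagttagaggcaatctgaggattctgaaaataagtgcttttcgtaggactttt

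RefSeq windows were matched for 7 of the 8 genes, without Abcb11, and also for Abcb4. AGGTCA was found in 3 of the 7 (Slc10a1, Slco1b2 and Abcc2), against 14.1% of all 33469 promoter windows of this length. Its first base lay 197 and 99 bases before the start in Slc10a1, 155 and 115 bases in Abcc2 and 78 bases in Slco1b2. TATAAA was found in 1 window, that of Slco1b2, at 231 bases before the start, against 12.9% of all windows. A longer motif, CAAAGTCCA, an element for HNF4, was found in 0 of the 7 windows, once in that of Abcb4 at 30 bases before the start, and in 0.338% of all windows. No such letters stood in the windows of Slco1a1, Slco1a4, Slc22a7 or Slc22a8, which says only that they are not in these 250 bases. Aligned to each other, the Slco1a1 and Slco1a4 windows shared 178 of 234 bases (76.1%), while the other 20 pairs shared 56.5% to 69.6%. The same letters thus stood upstream of Abcc2 and of Slc10a1, whose counts differ in what follows, and a match is a description, not a binding site.

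Total counts per rat were 16115709 to 16412520 in the normal control group, 15259441 to 16641954 in the DEN model group and 14922973 to 27161496 in the PZH administration group, where G27 was the deepest. The least covered value of these carriers was 234 counts (Slco1a4 in M13) and the highest 14971 (Abcc2 in G27), so none was near the floor of 3 counts. Levels per rat are given as CPM, counts divided by a library size corrected with TMM factors (trimmed mean of M values), and levels of different genes are compared only in the deposited FPKM, which is also divided by gene length. In the hepatocyte marker list (Alb, Ttr, Apoa1, Tf, Serpina1, Fgb, Asgr1 and Cps1) the summed CPM was 158550 to 172810 in normal, 33446 to 77977 in DEN and 129530 to 173010 in PZH-treated rats. The summed cholangiocyte markers ran from 13.4 to 21.1 CPM in normal, 246 to 785 CPM in DEN and 83.2 to 110.4 CPM in PZH-treated rats. In bulk liver, fewer hepatocytes and less RNA of a gene per hepatocyte cannot be told apart.

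In normal liver 3 of the uptake carriers, Slc10a1, Slco1b2 and Slco1a1, had the highest levels per length. Mean FPKM was 305 ± 76.4 (SD, n = 3) for Slc10a1 and 257 ± 15.2 for Slco1b2, whose ranges overlapped, followed by Slco1a1 at 176 ± 21.6, which was separate from both its neighbours in the order. Abcb11 (110.3 ± 10.8 FPKM), Slc22a8 (103 ± 24.9 FPKM) and Abcc2 (87.3 ± 18.0 FPKM) came next, each overlapping its neighbour in this order. Slco1a4 (62.8 ± 4.49 FPKM) and Slc22a7 (37.7 ± 13.9 FPKM) were lowest and separate from each other and from Abcc2.

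The comparison of DEN model with normal rats asks which of these carriers differ in the DEN-injured liver. All 6 uptake carriers and the bile salt pump Abcb11 were lower in the DEN rats, from 4.93-fold (Abcb11) to 20.2-fold (Slco1a4), while the conjugate pump Abcc2 did not pass the test under TMM scaling. At an adjusted p under 0.05, 7 of the 8 genes were lower and 0 higher, where 20.5% of all 14255 tested genes were lower and 25.3% higher. The same 7 also passed the stricter screen of the study (absolute log2 fold change above 2 and unadjusted P under 0.001), which 3.49% of all genes passed as lower. In these 7 every DEN rat was below every normal rat, as in 27.5% of all tested genes. The median log2 fold change was -3.36 over the 8 genes and 0.03 over all genes. All adjusted p-values, here and in what follows, come from the quasi-likelihood test of edgeR and were adjusted by Benjamini-Hochberg across every gene tested in that comparison.

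**Figure D1:**
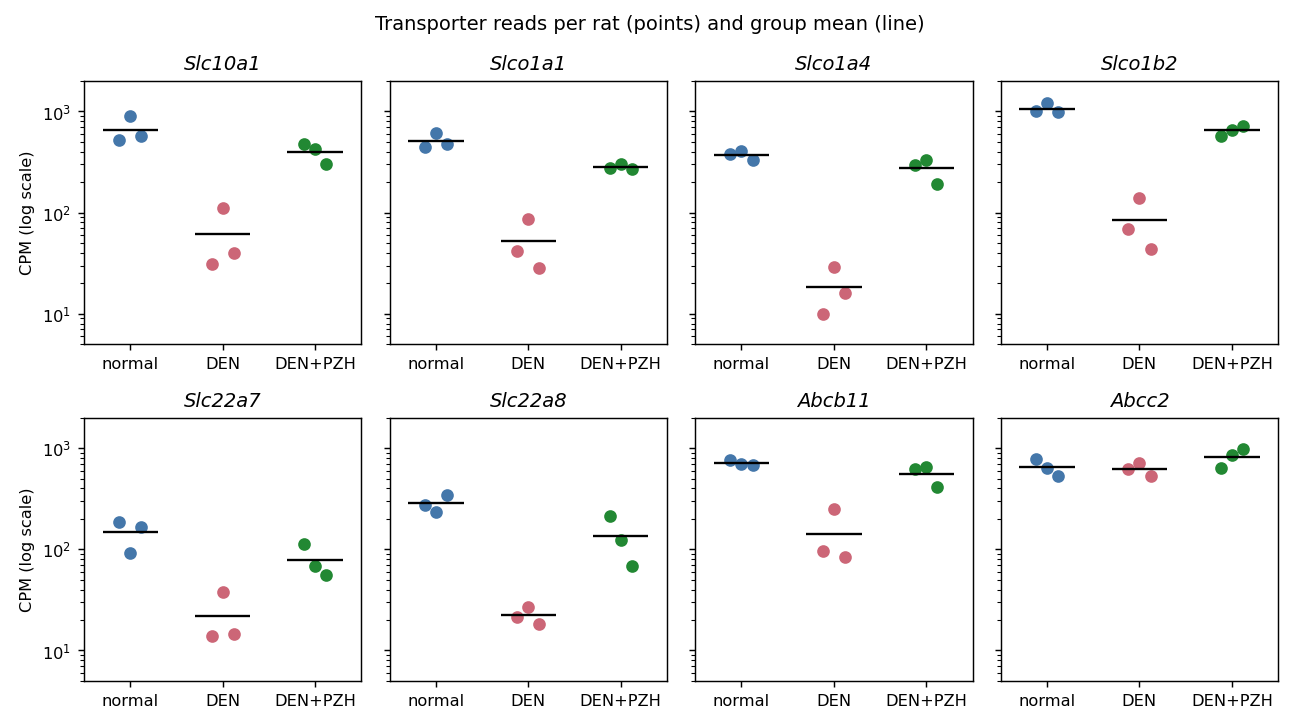
CPM of each of the 8 carriers (log axis) in each rat, with points for the 3 rats of the normal, DEN and DEN plus PZH groups and a line at each group mean. In 7 panels the 3 DEN points lie below all other points, and for Abcc2 the 3 groups overlap.

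Slc10a1, the sodium-coupled bile acid carrier, was at 519, 892 and 576 CPM in N1, N3 and N12 and at 31.1, 112 and 39.8 CPM in M13, M17 and M24. The highest DEN rat, M17, was still well under the lowest normal rat. The log2 fold change was -3.43 ± 0.53 (SE), a 10.8-fold lower level (adjusted p = 0.0014).

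Slco1b2, the Oatp of highest level per length, was at 1009, 1205 and 991 CPM in the normal and at 69.5, 139 and 43.5 CPM in the DEN rats. Its log2 fold change was -3.65 ± 0.45 (adjusted p = 0.00054). The normal rats lay close together and M17 was again the highest DEN rat.

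Slco1a4 had the largest change of the 8 genes, from 378, 411 and 331 CPM in the normal rats to 9.93, 28.9 and 15.9 CPM in the DEN rats. Its log2 fold change was -4.34 ± 0.41 (adjusted p = 0.00019). Its neighbour Slco1a1 went from 447, 616 and 482 CPM to 41.4, 87.0 and 28.4 CPM, a log2 fold change of -3.29 ± 0.43 (adjusted p = 0.00069). Both genes had groups that did not overlap, and the ratio between the pair is taken up with the other ratios.

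Slc22a8 (Oat3) was at 275, 233 and 348 CPM in the normal rats and at 21.4, 26.6 and 18.5 CPM in the DEN rats, the closest DEN values, relative to their mean, of the 7 carriers that were lower. It had a log2 fold change of -3.67 ± 0.26 (adjusted p = 6.2e-05). Slc22a7 (Oat2) was at 186, 92.5 and 167 CPM against 13.9, 37.9 and 14.7 CPM, a log2 fold change of -2.72 ± 0.44 (adjusted p = 0.0017). The gap was narrowest in Slc22a7, where N3 was the low normal rat and M17 the high DEN rat.

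Abcb11, the bile salt pump, was at 772, 693 and 683 CPM in the normal and at 96.8, 249 and 84.3 CPM in the DEN rats. It fell by 2.30 ± 0.42 on the log2 scale (adjusted p = 0.0031). Abcc2, the conjugate pump, was at 775, 629.7 and 528 CPM in the normal and at 626, 706 and 531 CPM in the DEN rats, and these ranges overlap. Its log2 fold change of -0.03 ± 0.26 did not pass (adjusted p = 0.93).

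**Figure D2:**
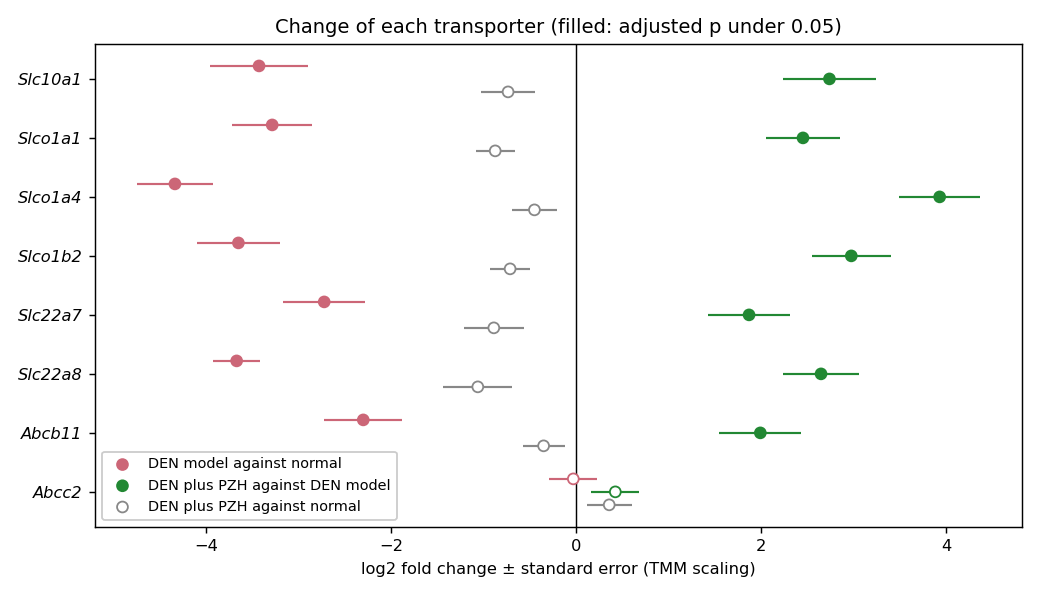
Log2 fold change of each carrier with its standard error in the 3 comparisons, filled where the adjusted p is under 0.05. The DEN against normal points run from -4.34 to -0.03, the PZH against DEN points from 0.42 to 3.93 and the open PZH against normal points from -1.06 to 0.36.

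The direction for Abcc2 depended on how the libraries were scaled. By library totals alone its log2 fold change in DEN rats was 0.81 (adjusted p = 0.014), where the median of all genes moved to 0.90. Scaled to the summed hepatocyte markers it was 1.73 ± 0.37 (adjusted p = 1e-05), where the median of all genes moved to 1.85 and 79.8% of all genes were called higher. Under that scaling the 6 uptake carriers were still lower, from -1.13 ± 0.44 for Slc22a7 (adjusted p = 0.014) to -2.66 ± 0.44 for Slco1a4 (adjusted p = 1.5e-08), in a comparison where 2.34% of all genes were called lower. Abcb11 alone lost its call there (-0.72 ± 0.39, adjusted p = 0.077). The levels of these 6 carriers were thus lower in DEN liver by more than the summed levels of the hepatocyte markers, and the part of cell composition in the changes was not tested. Alb weighed most in that sum, with a mean of 94905 CPM in normal rats. Under TMM scaling the single markers ran from -3.89 ± 0.50 (Ttr, adjusted p = 0.00067) to -0.30 ± 0.39 (Apoa1, adjusted p = 0.55). The fall of Ttr was thus within the range of these carriers under TMM scaling.

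**Figure D3:**
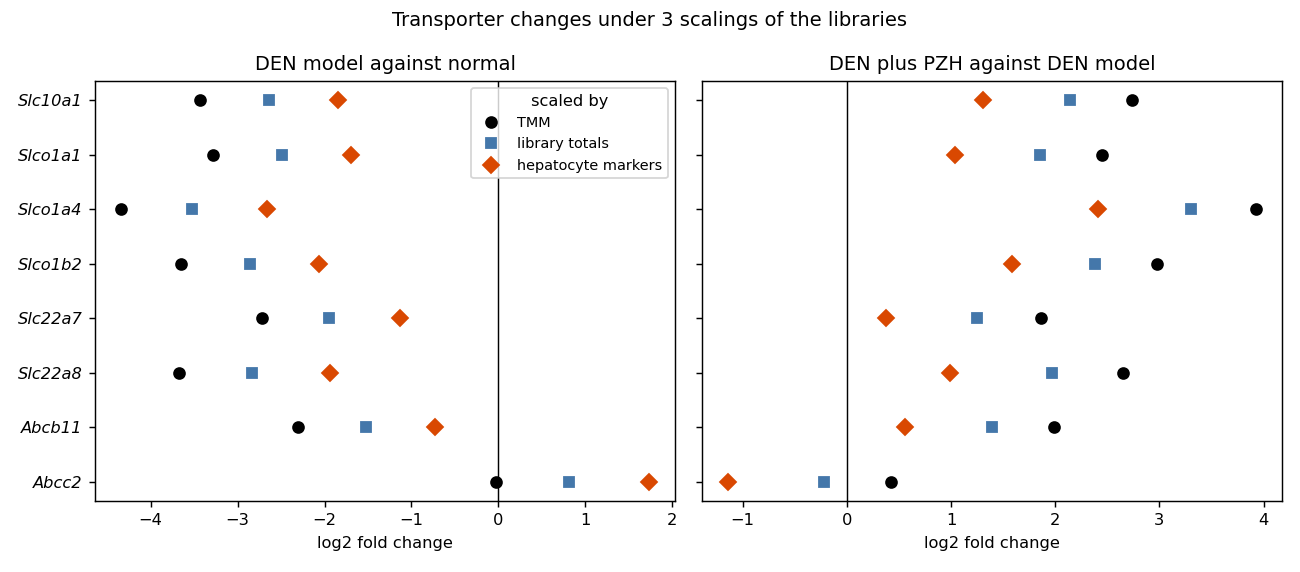
Log2 fold change of each carrier in DEN against normal rats (left) and PZH-treated against DEN rats (right) after scaling by TMM factors (circles), library totals (squares) or summed hepatocyte markers (diamonds). The 6 uptake carriers stay on the same side of 0 under the 3 scalings, while Abcc2 moves from -0.03 to 1.73 on the left and from 0.42 to -1.14 on the right.

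Of the 8 hepatocyte markers, 3 were lower in the DEN rats (Alb, Ttr and Asgr1) and the median log2 fold change was -1.49. Over all genes 20.5% were lower and 25.3% higher in DEN rats. All 8 cholangiocyte markers were higher in DEN rats, with a median log2 fold change of 7.22, as were 6 of 8 stellate and myofibroblast markers (median 2.71). Within the DEN group M17 had the highest CPM of all 8 carriers. M17 also had the highest hepatocyte marker sum (77977 CPM against 47007 in M13 and 33446 in M24) and the lowest cholangiocyte marker sum (246 CPM against 642 and 785). Without M17 the same 7 carriers were called.

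The comparison of PZH-treated with DEN model rats asks which carriers differ when PZH is given with DEN, and it uses the same 3 DEN rats. The 7 carriers that were low in DEN rats were all higher in the PZH-treated rats, from 3.65-fold (Slc22a7) to 15.2-fold (Slco1a4), and Abcc2 did not pass. At an adjusted p under 0.05, 7 of 8 were higher and 0 lower, where 8.72% of all 14272 tested genes were higher and 10.3% lower. The screen of the study was passed by 5 (Slc10a1, Slco1a1, Slco1a4, Slco1b2 and Slc22a8), against 1.08% of all genes passing it as higher. In 7 of 8 every PZH-treated rat was above every DEN rat, as in 18.5% of all genes. The median log2 fold change was 2.55 over the 8 genes, where that of all genes was 0.005.

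Slc10a1 was at 475, 421 and 302 CPM in G27, G28 and G42, above the highest DEN rat at 112 CPM. Its log2 fold change was 2.74 ± 0.50 (adjusted p = 0.014). Both canalicular and sinusoidal bile salt carriers were therefore higher, since Abcb11 was at 617, 648 and 414 CPM and had a log2 fold change of 1.99 ± 0.44 (adjusted p = 0.022).

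Among the Oatp genes, Slco1a4 was at 294, 333 and 192 CPM in the PZH-treated rats. It rose by 3.93 ± 0.44 on the log2 scale (adjusted p = 0.0061). Slco1b2 was at 572, 663 and 718 CPM, with a log2 fold change of 2.97 ± 0.43 (adjusted p = 0.0093). Slco1a1 was at 275, 299 and 269 CPM, the smallest spread relative to the mean among the 8 genes in this group, with a log2 fold change of 2.45 ± 0.40 (adjusted p = 0.012).

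The Oat genes varied more among the PZH-treated rats. Slc22a8 was at 215, 124 and 68.4 CPM, with G27 high and G42 low, and rose by 2.65 ± 0.41 on the log2 scale (adjusted p = 0.01). Slc22a7 was at 114, 68.5 and 55.6 CPM in the same order of rats, a log2 fold change of 1.87 ± 0.45 (adjusted p = 0.026). Abcc2 was at 638, 848 and 977 CPM in the opposite order. Its log2 fold change of 0.42 ± 0.26 was not called (adjusted p = 0.28), and it was -0.22 by library totals and -1.14 ± 0.39 by hepatocyte markers (adjusted p = 0.0055), a scaling under which 79.8% of all genes were called lower.

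Some calls were lost when a single rat was left out, which leaves 2 rats in its group. The share of all genes called in such fits is not given here, so fewer rats and the rat left out cannot be told apart. M17 and M24, the DEN rats left without M13, were the least alike pair of their group (chi-square of counts per degree of freedom 141.5). Without M13, 2 of the 7 carriers were still called (Slco1a4 and Slco1b2), while Slc22a8 (log2 fold change 2.62, adjusted p = 0.051), Slc10a1 (2.42, adjusted p = 0.054), Slco1a1 (2.31, adjusted p = 0.055), Abcb11 (1.77, adjusted p = 0.091) and Slc22a7 (1.62, adjusted p = 0.098) were not. Without M24, G27 or G28 in turn, Abcb11 and Slc22a7 lost their calls and 5 remained. Scaled to hepatocyte markers, 5 carriers were higher, where 1.14% of all genes were called higher, with Slco1a4 at 2.41 ± 0.47 (adjusted p = 3.4e-06), while Abcb11 (0.56 ± 0.42, adjusted p = 0.2) and Slc22a7 (0.38 ± 0.47, adjusted p = 0.44) were not called. In this comparison, under TMM scaling, 2 of 8 hepatocyte markers were higher (Ttr and Asgr1, list median 1.12) and 7 of 8 cholangiocyte markers were lower (list median -2.67). Over all genes 8.72% were higher and 10.3% lower.

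The comparison of PZH-treated with normal rats asks how far the PZH-treated rats stood from normal. None of the 8 carriers was called between PZH-treated and normal rats by edgeR, where 1.15% of all 13348 tested genes were lower and 4.07% higher. At an unadjusted p under 0.05, 5 were lower (Slc10a1, Slco1a1, Slco1b2, Slc22a7 and Slc22a8), against 7.19% of all genes. DESeq2 called 3 as lower (Slco1a1, Slco1b2 and Slc22a8), against 3.19% of its tested genes. In 5 genes (Slc10a1, Slco1a1, Slco1b2, Slc22a8 and Abcb11) every PZH-treated rat was below every normal rat, as in 10.6% of all genes.

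The 6 uptake carriers had log2 fold changes from -1.06 ± 0.37 (Slc22a8, adjusted p = 0.16) to -0.45 ± 0.24 (Slco1a4, adjusted p = 0.37) against normal. Slco1a1 was closest to the threshold, at -0.88 ± 0.21 (adjusted p = 0.051), with its 3 PZH-treated rats at 269 to 299 CPM and its normal rats at 447 to 616 CPM. Slco1b2 (-0.71 ± 0.21, adjusted p = 0.099) and Slc10a1 (-0.74 ± 0.29, adjusted p = 0.21) had separate groups as well. Abcb11 was at -0.35 ± 0.23 (adjusted p = 0.47), and Abcc2 stood at 0.36 ± 0.24 (adjusted p = 0.5). Without G27, the rat with the highest Oat levels of its group, Slc22a7 (-1.25, adjusted p = 0.031) and Slc22a8 (-1.57, adjusted p = 0.014) were called lower. A p above the threshold does not show that the PZH-treated rats were at normal levels.

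The order of the carriers per length changed with DEN. Abcc2 stood first in all 3 DEN rats, at 153 ± 8.605 FPKM and separate from Slc10a1 at 49.1 ± 28.6 FPKM, while it had been in place 5 or 6 in the normal rats. Slc10a1, Abcb11 (38.3 ± 18.8 FPKM), Slco1b2 (35.4 ± 15.9 FPKM) and Slco1a1 (31.4 ± 14.0 FPKM) overlapped one another in sequence. Slco1a4 was lowest in every DEN rat, at 5.44 ± 2.22 FPKM. In PZH-treated rats Slc10a1 (218 ± 40.9 FPKM) and Slco1b2 (185 ± 29.0 FPKM) had the highest means again with overlapping ranges, and Abcc2 came next at 132 ± 32.7 FPKM, overlapping Slco1b2.

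As a share of the summed FPKM of the 8 genes, which does not depend on library scaling, Abcc2 held 6.63% to 9.79% in normal, 35.0% to 53.6% in DEN and 10.9% to 19.7% in PZH-treated rats. The 6 uptake carriers together held 82.6% ± 3.09 (SD, n = 3) in normal, 41.96% ± 7.88 in DEN and 73.6% ± 3.14 in PZH-treated rats. Neither share overlapped between any pair of groups. The share of Abcb11 was 9.73% ± 1.40, 11.0% ± 2.62 and 11.3% ± 1.67 in the same order, and the groups overlapped. Within each group the rat with the highest Abcc2 share was N1, M13 and G42.

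**Figure D4:**
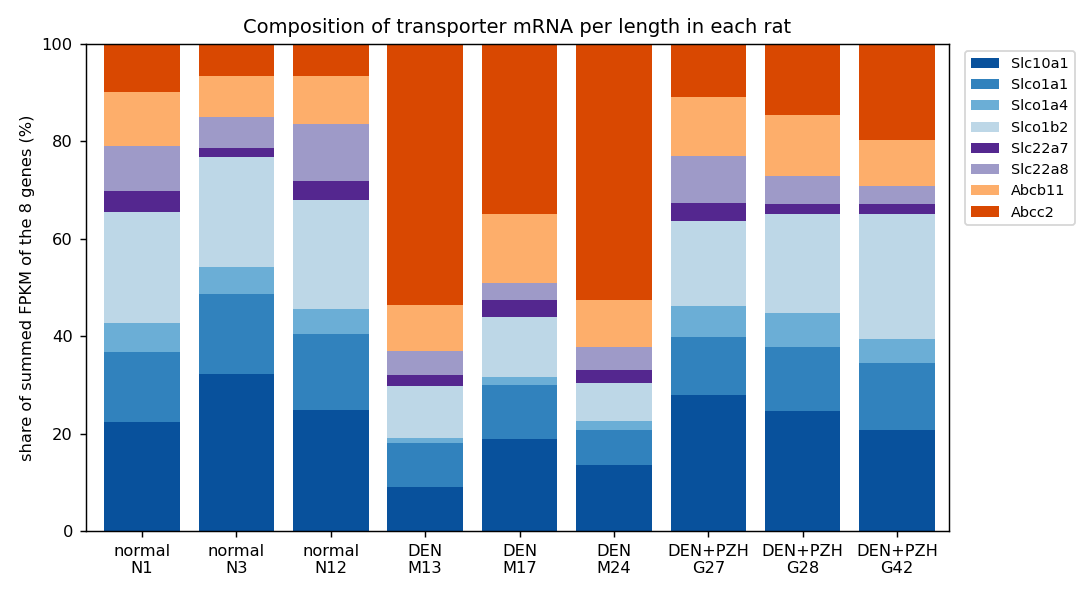
Share of the summed FPKM of the 8 carriers held by each gene in each rat (percent, stacked to 100). The top segment, Abcc2, spans 35.0% to 53.6% in the DEN rats and no more than 19.7% in any other rat.

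Ratios of counts within a rat, which also need no library scaling, showed unequal change between pairs of carriers. The log2 ratio of Slc10a1 to Abcb11, bile acid uptake against bile salt export, was -0.57, 0.36 and -0.25 in N1, N3 and N12. It was -1.64, -1.15 and -1.08 in M13, M17 and M24 and -0.38, -0.62 and -0.46 in G27, G28 and G42. Every DEN rat was below every other rat, so relative to normal Slc10a1 had gone down further than Abcb11 in each. The difference of DEN from normal was -1.14 (exact two-sided permutation p = 0.1), that of PZH-treated from DEN 0.81 (exact p = 0.1) and that of PZH-treated from normal -0.33 (exact p = 0.3), where 0.1 is the smallest p that 3 against 3 rats can give.

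The log2 ratio of Slco1a1 to Slco1a4 was 0.24, 0.59 and 0.54 in the normal, 2.06, 1.59 and 0.84 in the DEN and -0.10, -0.15 and 0.48 in the PZH-treated rats. In counts, Slco1a1 was above Slco1a4 in all DEN rats by more than in any other rat. The difference was 1.04 between DEN and normal (exact two-sided permutation p = 0.1), -1.42 between PZH-treated and DEN (exact p = 0.1) and -0.38 between PZH-treated and normal (exact p = 0.2). None of these ratios could pass 0.05 with 3 rats in a group.

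The gene whose profile over the 9 rats was most like that of each carrier was found among 11442 genes by the smallest root mean square (RMS) difference of centred log2(CPM + 1) values. Slc10a1 was nearest to Apon, which encodes a plasma apolipoprotein (RMS 0.20), and Slco1b2 to Mbl2, the mannose-binding lectin of plasma (RMS 0.18). Slco1a1 was nearest to Adhfe1 (RMS 0.16), Slco1a4 to Cyp3a18 (RMS 0.27), Slc22a8 to Cyp2d3 (RMS 0.26) and Abcb11 to Cyp4f1 (RMS 0.14), the last 3 being cytochrome P450 genes. Slc22a7 was nearest to Grhpr, glyoxylate and hydroxypyruvate reductase (RMS 0.13). Abcc2 was nearest to Lrrc8b, a volume-regulated channel subunit (RMS 0.10), and its nearest fellow carrier, Abcb11, was as far as 1.11. These distances describe profiles in the same 9 libraries and carry no test.

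A wider list of 64 bile transport genes, 56 of them tested, set these carriers among their neighbours. In DEN against normal rats 31 were lower and 10 higher, and in PZH-treated against DEN rats 15 were higher and 4 lower. Over all genes the shares were 20.5% lower and 25.3% higher in DEN rats, and 8.72% higher and 10.3% lower with PZH. These list counts depended on the scaling: in DEN rats 23 were lower and 18 higher by library totals, and 8 lower and 28 higher by hepatocyte markers. Under hepatocyte marker scaling 2.34% of all genes were lower and 79.8% higher in DEN rats. With PZH the list counts were 11 higher and 14 lower by library totals, and 2 higher and 25 lower by hepatocyte markers. The latter scaling called 1.14% of all genes higher and 79.8% lower with PZH. Against normal, 6 of 55 were higher and 4 lower in PZH-treated rats, where 4.07% of all genes were higher and 1.15% lower. Of the other uptake carriers, 7 of 9 tested were lower in DEN rats and 1 was higher (5 lower and 1 higher by library totals, but 2 lower and 2 higher by hepatocyte markers). The higher gene was Slco3a1, an Oatp named after its values were seen, at 2.11 ± 0.52 in DEN (adjusted p = 0.011) and 1.90 ± 0.52 in PZH-treated against normal rats (adjusted p = 0.073). Among the lower genes, Slco2b1 (an Oatp) was at -2.30 ± 0.35 in DEN against normal (adjusted p = 0.0013), Slc16a10 (an amino acid carrier) at -2.61 ± 0.48 (adjusted p = 0.0031) and Slc22a5 (Octn2, carnitine) at -1.54 ± 0.18 (adjusted p = 0.0004). In PZH-treated rats 3 of 9 were higher than in DEN rats, among them Slco2b1 by 1.73 ± 0.34 and Slc16a10 by 1.74 ± 0.45 on the log2 scale, while by hepatocyte markers 0 were higher and 3 lower.

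Efflux carriers of the sinusoidal and lateral membrane include Abcc3 and Abcc4, pumps that return bile acids and conjugates to blood, and other exporters. Of the 5 tested (Abcc3, Abcc4, Abcc5, Abcc6 and Abca1), 3 were higher and 1 lower in DEN rats. Over all genes 25.3% were higher. By hepatocyte markers 4 of 5 were higher, where 79.8% of all genes were. Abcc3 (Mrp3) was at 2.65, 3.02 and 3.89 CPM in normal, 105.1, 105.2 and 80.8 CPM in DEN and 49.7, 59.3 and 74.5 CPM in PZH-treated rats. Its log2 fold change was 4.94 ± 0.23 in DEN against normal (adjusted p = 1.7e-05), -0.65 ± 0.21 in PZH-treated against DEN (adjusted p = 0.063) and 4.26 ± 0.27 in PZH-treated against normal rats (adjusted p = 0.00089). Abcc3 was thus above every normal rat in every PZH-treated rat.

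Abcc4 (Mrp4) was at 5.19 to 8.31 CPM in normal, 23.7 to 53.4 CPM in DEN and 12.9 to 26.5 CPM in PZH-treated rats. Its log2 fold changes were 2.67 ± 0.34 (adjusted p = 0.00064), -1.05 ± 0.36 (adjusted p = 0.075) and 1.58 ± 0.33 (adjusted p = 0.027) in the 3 comparisons in that order. By library totals, Abcc3 (-1.29, adjusted p = 0.0047) and Abcc4 (-1.75, adjusted p = 0.012) were called lower in PZH-treated than in DEN rats. Abcc5 rose by 1.80 ± 0.28 on the log2 scale in DEN (adjusted p = 0.0014) and was lower in PZH-treated than in DEN rats, at -1.51 ± 0.23 (adjusted p = 0.01). Abcc6, a pump of hepatocytes, was at -2.85 ± 0.45 in DEN (adjusted p = 0.0015) and 2.02 ± 0.45 with PZH (adjusted p = 0.022). Scaled to hepatocyte markers, its DEN value was -1.30 (adjusted p = 0.0037), and its PZH value of 0.59 was not called (adjusted p = 0.22). Cholangiocytes also express Abcc3, and the share of bile duct cells in its change was not tested.

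**Figure D5:**
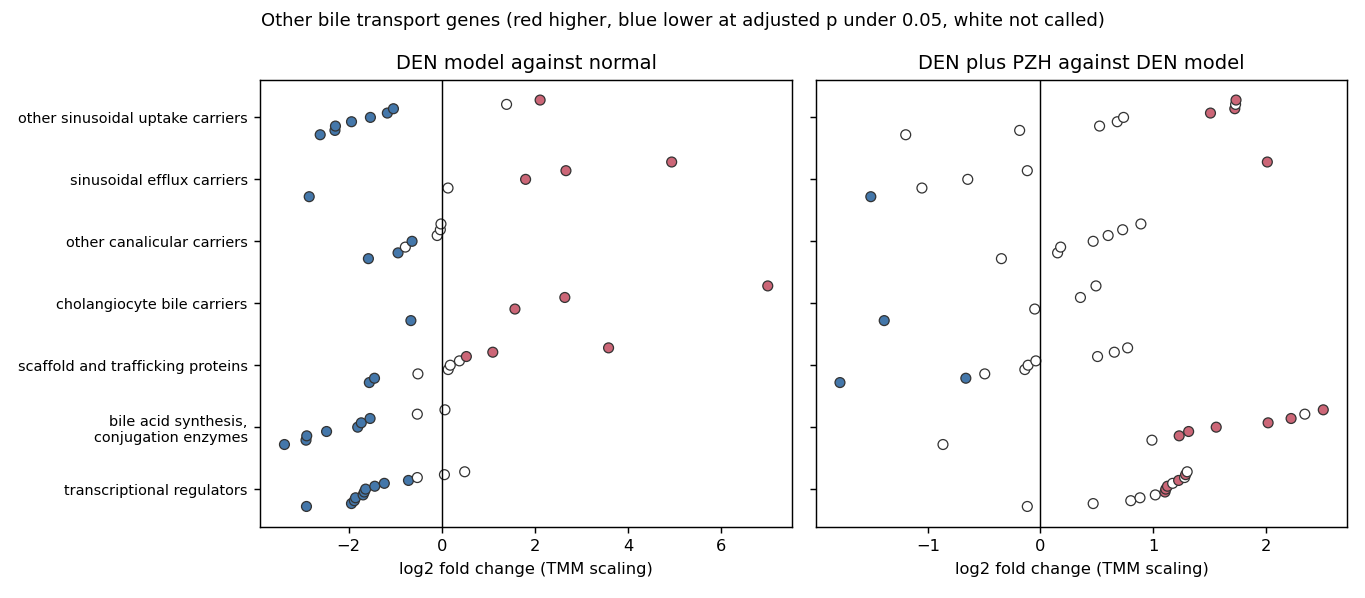
Log2 fold change (TMM scaling) of each tested gene of the wider list, grouped by role, in DEN against normal rats (left) and PZH-treated against DEN rats (right), red where called higher, blue where called lower and white where not called. In the left panel 7 of 9 other uptake carriers, 7 of 9 synthesis enzymes and 10 of 13 regulators are blue, and 3 of 5 efflux carriers are red, whereas by hepatocyte markers the blue counts would be 2, 4 and 1. In the left panel's comparison, TMM scaling called 20.5% of all genes lower and 25.3% higher. Under hepatocyte marker scaling 2.34% of all genes were called lower and 79.8% higher.

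Of the other canalicular carriers, 3 of 7 were lower in DEN rats, Abcg5 (a sterol exporter subunit) at -1.58 ± 0.37 (adjusted p = 0.009), Tmem30a (a flippase subunit) at -0.94 ± 0.25 (adjusted p = 0.015) and Atp7b (the copper pump) at -0.64 ± 0.20 (adjusted p = 0.03), and with PZH 0 of 7 were called. Over all genes 20.5% were lower and 25.3% higher in DEN rats, and 8.72% higher and 10.3% lower with PZH. In DEN rats 0 of the 7 other canalicular carriers were lower and 2 higher by library totals, where the median of all genes moved to 0.90. By hepatocyte markers 0 were lower and 5 higher in DEN rats, and 4 were lower with PZH. Hepatocyte marker scaling called 79.8% of all genes higher in DEN rats and 79.8% lower with PZH. Of 9 scaffold and trafficking genes, Ezr (ezrin) was higher in DEN by 3.58 ± 0.33 on the log2 scale (adjusted p = 0.00018), and lower in PZH-treated than in DEN rats at -1.78 ± 0.29 (adjusted p = 0.012). The PDZ scaffolds Pdzk1 (-1.56 ± 0.27, adjusted p = 0.0022) and Slc9a3r1 (-1.45 ± 0.18, adjusted p = 0.00062) were lower in DEN rats. Of the 4 cholangiocyte bile carriers, Cftr (7.004 ± 0.26, adjusted p = 9.1e-06), Slc10a2 (2.64 ± 0.67, adjusted p = 0.012) and Aqp1 (1.57 ± 0.27, adjusted p = 0.0023) were higher in DEN rats and Slc4a2 was lower (-0.67 ± 0.17, adjusted p = 0.014), though Slc4a2 was at 0.19 by library totals (adjusted p = 0.47) and was higher by hepatocyte markers (1.15, adjusted p = 0.014).

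Bile acid synthesis and conjugation genes were lower in DEN rats in 7 of 9 cases and higher with PZH in 6 of 9, where hepatocyte marker scaling gave 4 lower and 2 higher in DEN and 2 higher and 1 lower with PZH. Over all genes TMM scaling called 20.5% lower in DEN and 8.72% higher with PZH. Hepatocyte marker scaling called 2.34% of all genes lower and 79.8% higher in DEN, and 1.14% higher and 79.8% lower with PZH. Baat, which conjugates bile acids to taurine and glycine, was at -2.90 ± 0.47 in DEN (adjusted p = 0.0018) and 2.51 ± 0.46 with PZH (adjusted p = 0.014). Amacr, a peroxisomal racemase, was at -2.92 ± 0.47 (adjusted p = 0.0018) and 2.23 ± 0.64 (adjusted p = 0.044), and Hsd3b7 at -1.54 ± 0.23 (adjusted p = 0.0011) and 1.32 ± 0.17 (adjusted p = 0.0083). Cyp8b1, the sterol 12-alpha-hydroxylase, was at -2.48 ± 0.49 in DEN (adjusted p = 0.0041) and 0.99 ± 0.44 with PZH (adjusted p = 0.15), and was below normal in PZH-treated rats (-1.52 ± 0.27, adjusted p = 0.016).

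Of 13 transcriptional regulators, 10 were lower in DEN rats and 5 higher with PZH. Over all genes 20.5% were lower in DEN rats and 8.72% higher with PZH. Nr1h4 (FXR, the bile acid receptor that drives Abcb11) was at -1.88 ± 0.23 in DEN (adjusted p = 0.00054), 1.13 ± 0.25 with PZH (adjusted p = 0.022) and -0.79 ± 0.19 against normal in PZH-treated rats (adjusted p = 0.045). The last of these calls was lost by library totals (-0.57, adjusted p = 0.12) and by hepatocyte markers (-0.61, adjusted p = 0.16). Nr0b2 (SHP, a target of this receptor and a repressor) was at -2.91 ± 0.42 (adjusted p = 0.0011), 1.28 ± 0.44 (adjusted p = 0.077) and -1.66 ± 0.28 (adjusted p = 0.013) in the same order of comparisons. Hnf4a, a factor of hepatocyte identity, was at -1.64 ± 0.29 in DEN (adjusted p = 0.0024) and 1.11 ± 0.27 with PZH (adjusted p = 0.026).

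Cebpa was at -1.69 ± 0.23 in DEN (adjusted p = 0.00078) and 1.29 ± 0.26 with PZH (adjusted p = 0.017). Nr1i2 (PXR) was lower in DEN rats (-1.67 ± 0.33, adjusted p = 0.004) and not called with PZH (0.88 ± 0.35, adjusted p = 0.11). Nr1i3 (CAR) was called in neither comparison (-0.53 ± 0.48, adjusted p = 0.4, and 1.02 ± 0.35, adjusted p = 0.075). Scaled to hepatocyte markers, 1 of the 13 regulators was lower and 4 were higher in DEN rats (list median 0.09). Under that scaling the median of all genes moved to 1.85 and 79.8% of all genes were called higher. Nr1h4 at -0.19 (adjusted p = 0.69) and Hnf4a at 0.09 (adjusted p = 0.83) were not called but lay below that median. The 6 uptake carriers were still called lower. With PZH, 0 of the 13 regulators were higher and 2 lower under hepatocyte marker scaling, where 79.8% of all genes were called lower. By library totals 1 was higher and 1 lower with PZH, where the median of all genes moved to -0.67.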

How the data were processed

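Liver RNA of 9 rats was sequenced, with 1 library per rat. The authors deposited whole-number read counts per gene, which are not normalized, and FPKM values; the submitters' processing notes name fastp, HISAT2 2.1.0, StringTie 1.3.3b and edgeR 3.30.3, and no genome build is given in the sources used here. The deposited FPKM equals counts divided by library total and gene length for 10710 of 10710 genes with over 20 counts in every rat (tolerance 0.001). The table also holds fold changes, P and Q values of the authors' own comparisons, which were not used. Groups follow the first letter of the rat titles. Total counts ranged from 14922973 to 27161496, and the smallest count behind a carrier was 234. Counts differed between rats of a group by far more than sampling noise (chi-square per degree of freedom 32.9 to 154), so no library was counted as a copy of another. The labels give 1 library per named rat, and p-values measure the spread between rats.

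Counts of the 6 rats of each comparison were filtered with filterByExpr, scaled with TMM factors (0.731 to 1.58 over the 9 rats) and tested with edgeR 4.0.16 (glmQLFit and glmQLFTest) in R 4.3.3, without covariates, with Benjamini-Hochberg adjustment over all genes tested. Standard errors of edgeR fold changes were not fitted directly but derived as the absolute log2 fold change divided by the square root of the test's F statistic. The code was tested on simulated counts. Ratios were compared by exact two-sided permutation. Alternatives were DESeq2 1.42.0, library totals, summed hepatocyte markers, a fit of all 3 groups together, no count filter or at least 10 counts per rat, the study's screen and leaving out each rat. Scaling to the geometric mean of hepatocyte markers was chosen after seeing the data.

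The carriers and all lists were chosen with earlier results of these data known. Named genes were all carriers, in each role of the wider list up to 4 called genes with the smallest P in DEN against normal, a fixed set of regulators, and the nearest profile of each carrier. Of the wider list and markers, genes of 3 further symbols were not analysed here. Some genes that this rule names are not reported here. Sequences are from RefSeq (GRCr8).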

Additional observations from a re-analysis of the deposited data

How the results depend on the processing

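For Abcc2, whose log2 fold change between DEN and normal rats was -0.03, the sign changed with library totals (0.81), summed hepatocyte markers (1.73), their geometric mean (1.82, an alternative chosen after seeing the data), at least 10 counts per rat (0.071), without N1 (0.097) and without M24 (0.075), and the values without single rats ran from -0.159 to 0.097. Between PZH-treated and DEN rats, its 0.42 became -0.22, -1.14 and -1.14 under the first 3 of these. Over the 312 fold changes of single carriers under an alternative, 279 kept direction and side of the threshold. Without a change of sign, 18 lost and 6 gained a call, and 9 were the changes of sign of Abcc2. Some of the latter also gained a call: between DEN and normal rats under library totals and both marker scalings, and between PZH-treated and DEN rats under both marker scalings. Between PZH-treated and normal rats, where 0 carriers were called, DESeq2 called 3 and no filter on low counts called 1. Leaving out each rat gave 7 carriers in every case between DEN and normal, 2 to 7 between PZH-treated and DEN (2 without M13) and 0 to 2 between PZH-treated and normal rats (2 without G27). The ratio differences ranged without single rats from -1.35 to -0.88, 0.63 to 0.91 and -0.54 to -0.07 for Slc10a1 to Abcb11, and from 0.76 to 1.37, -1.75 to -1.13 and -0.58 to -0.26 for Slco1a1 to Slco1a4, in the order of the comparisons in the report. With the geometric mean of hepatocyte markers, Slc22a8 also lost its call with PZH (0.93, adjusted p = 0.091 in edgeR's test). The cause of these changes was not tested, beyond the shift of all genes that each scaling brings by construction.

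No paired analysis was possible because the rats of different groups share no number. Depth did not limit the carriers, whose smallest count was 234. With 3 rats in a group, the spread between rats was the limit, and the exact tests could not give a p below 0.1.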
